A study of Nasonia vitripennis and Nasonia giraulti with 12 samples.

Results

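Of 24337 genes measured in 2 species of jewel wasp, 102 stood out as high in adult Nasonia vitripennis females and low in the other groups of the study. The groups were females and males of N. vitripennis (strain AsymCX) and females and males of Nasonia giraulti (strain R16A), all sampled as whole bodies 24 h after the adults emerged, with 3 libraries per group and a pool of 10 animals behind each library. No group carried a treatment or an engineered allele. A gene was a member when its mean level in N. vitripennis females was at least 5 CPM (a gene's count scaled to a common library total, so that depths compare) and its log2(mean CPM + 0.5) there was at least 2 above each of the other 3 groups, that is about 4-fold. The members were thus picked on these same libraries, and their excess in N. vitripennis females is a description without a test. They made up 1.05% of the 9678 genes at 5 CPM or more in N. vitripennis females. The same rule with another group as the high one gave 164 genes for N. vitripennis males, 59 for N. giraulti females and 88 for N. giraulti males.

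Nasonia wasps are parasitoids of flies. A female drills into the fly's pupal case, injects venom that alters the host, and lays eggs on the enclosed pupa, so venom gland and ovary are organs of the female alone. Males come from unfertilised eggs and are haploid, and the sexes use different splice forms of transformer and doublesex, the regulators of sexual development in insects. N. vitripennis attacks many kinds of flies, whereas N. giraulti is known from blowflies in bird nests. The file names genes by identifiers that start with Nasvi2EG. None of these occurs in the available name table. What a member encodes is therefore not stated, gene lists could not be applied, and few identifiers are printed. The labelled tissue could not be checked against marker genes for the same reason.

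The libraries held 23763596 to 51374887 counts each, and 3 counts in a library correspond to 0.0584 to 0.126 CPM. In all 4 groups, library 1 had the greatest depth. Reads of both species were counted on a single set of identifiers, and the alignment reference is not stated in the available sources. A low value in N. giraulti can therefore not be told apart from reads that aligned poorly or from a gene that the set misses in that species. Whole bodies were measured, so fewer cells of a type and less RNA per cell cannot be told apart either. Of the 102 members, 17 held fractional counts, as did 16.7% of all tested genes. Such counts are taken here to mean that reads were divided with another gene (sharing reads), and these levels are uncertain. How the counts were divided is not stated in the available sources.

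All members together took 0.366%, 0.309% and 0.391% of the counts in N. vitripennis female libraries 1, 2 and 3. Their share was 0.0285%, 0.0172% and 0.0252% in the males of that species. In N. giraulti it was 0.0366%, 0.0595% and 0.0408% in females and 0.0111%, 0.0105% and 0.00847% in males. The summed level was thus next highest in N. giraulti females and lowest in N. giraulti males, and no pair of groups overlapped. Most members were genes of modest level. Their mean in N. vitripennis females ran from 5.17 to 572 CPM with a median of 17.2, and 68 reached 10 CPM, 13 reached 50 CPM and 6 reached 100 CPM. The 2 most abundant members held 27.4% of the summed member level in N. vitripennis females, and the 10 most abundant held 51.6%.

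**Figure D1:**
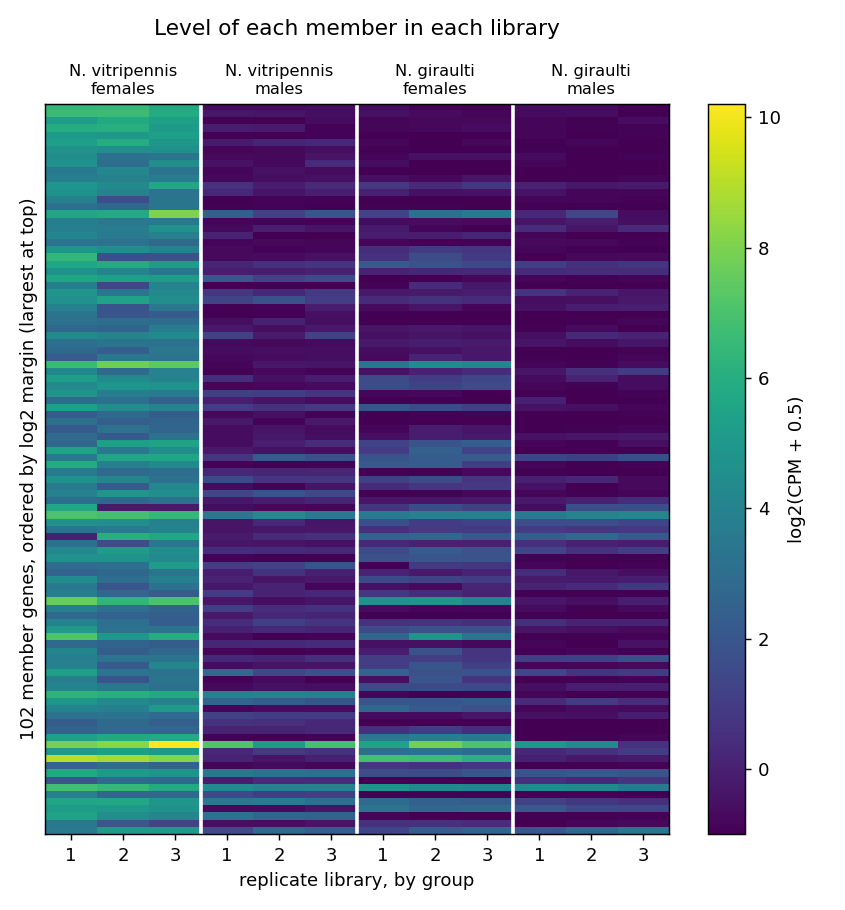
Level of each of the 102 members (rows, ordered by the log2 margin over the next highest group) in each of the 12 libraries (columns, 3 per group), as log2(CPM + 0.5). The N. vitripennis female columns are the brightest in most rows, while the N. giraulti female columns keep an intermediate level in many rows and the N. giraulti male columns are the darkest.

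The distance to the next highest group varied widely. The log2 margin had a median of 3.0 and ran from 2.01 to 6.94. It reached 3 in 51 members, 4 in 16, 5 in 7 and 6 in 5. The member with the largest margin stood at 88.2, 91.4 and 55.2 CPM in the N. vitripennis female libraries. It had 0.136, 0.126 and 0.161 CPM in N. vitripennis males, and all 6 N. giraulti libraries lay between 0 and 0.154 CPM. At the other end the threshold cut through a continuum. The 3 members closest to it had margins of 2.006, 2.009 and 2.01, the 3 genes just outside had margins of 1.989, 1.979 and 1.977, and 16 members lay within 0.1 above the threshold while 9 genes lay within 0.1 below. By level, the member with the lowest mean stood at 5.17 CPM, and the highest gene left out for its level alone stood at 4.59 CPM.

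High in a single group did not mean absent elsewhere. With 1 CPM as the limit, 44 members were below it in each of the other 3 groups, 24 reached it in N. giraulti females only, and 12 in N. vitripennis males only. Another 8 reached it in both sexes of N. giraulti, 4 in N. vitripennis males and N. giraulti females, and 10 in all 3 other groups. In total 46 members reached 1 CPM in N. giraulti females, 26 in N. vitripennis males and 18 in N. giraulti males. The group next to N. vitripennis females was N. giraulti females for 45 members, N. vitripennis males for 39 and N. giraulti males for 18. The 44 members below 1 CPM elsewhere were the least abundant, with a median of 8.40 CPM in N. vitripennis females, and they also had the largest median ratio over the next group, 27.3-fold. The 10 members present in all groups had a median of 37.4 CPM in N. vitripennis females and a median ratio of 4.29. The grouping by level in the other groups largely sets these ratios, so they are a description only.

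Near absence in a whole species was found in part of the set. Under 0.1 CPM in both sexes of N. giraulti were 24 members, of which 7 still reached 1 CPM in N. vitripennis males and 6 were under 0.1 CPM there as well. At most 3 reads in all libraries of a group were found for 17 members in N. giraulti females, for 32 in N. giraulti males and for 7 in N. vitripennis males.

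The most abundant member, Nasvi2EG013754, also varied most in absolute level. It stood at 236, 296 and 1183 CPM in the N. vitripennis female libraries and at 142, 34.3 and 124 CPM in the males. In N. giraulti it stood at 44.0, 235 and 135 CPM in females and at 30.6, 19.0 and 1.02 CPM in males. Library 3 of the N. vitripennis females was far above the others, and libraries 1 and 2 lay close to the highest N. giraulti female library. Its log2 margin of 2.05 fell to 0.95 without that library 3, and to 1.63 without library 1 of N. giraulti females, so that it would no longer be a member in either case.

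Nasvi2EG004735, the second most abundant member, was expressed in the females of both species. It stood at 532, 398 and 276 CPM in N. vitripennis females and at 117, 104 and 71.1 CPM in N. giraulti females. In males it stood at 0.584, 0.252 and 0.484 CPM in N. vitripennis and at 0.48, 0.334 and 0.377 CPM in N. giraulti. The 4 groups formed 2 tiers by sex, the male libraries of both species overlapped, and every N. vitripennis female library lay above every N. giraulti one. The ratio of the female means was 4.12, the lowest over a next group in the set, and the log2 margin of 2.04 became 1.78 without library 1 of the N. vitripennis females, and 1.85 without library 3 of the N. giraulti females, either of which would end the membership. With medians in place of means it was 1.93.

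The other members above 100 CPM, given without identifier, showed 3 different patterns outside N. vitripennis females. One stood at 99.3, 213 and 168 CPM there, at 9.63, 20.7 and 16.5 CPM in N. giraulti females, and at no more than 0.337 CPM in any male library. Another stood at 195, 81.5 and 131 CPM, with 24.8, 28.1 and 15.8 CPM in N. giraulti females and at most 0.453 CPM in males. Both were therefore female genes in each species, like Nasvi2EG004735. A further member stood at 48.7, 57.0 and 263 CPM, so that library 3 was far above the others, as it was for Nasvi2EG013754. In the last of them, which shares reads, the 3 other groups lay together at 10.4 to 19.0 CPM below 135, 118 and 88.2 CPM, and no difference between the sexes of N. giraulti was called (edgeR log2 fold change 0.39, adjusted p = 0.168).

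**Figure D2:**
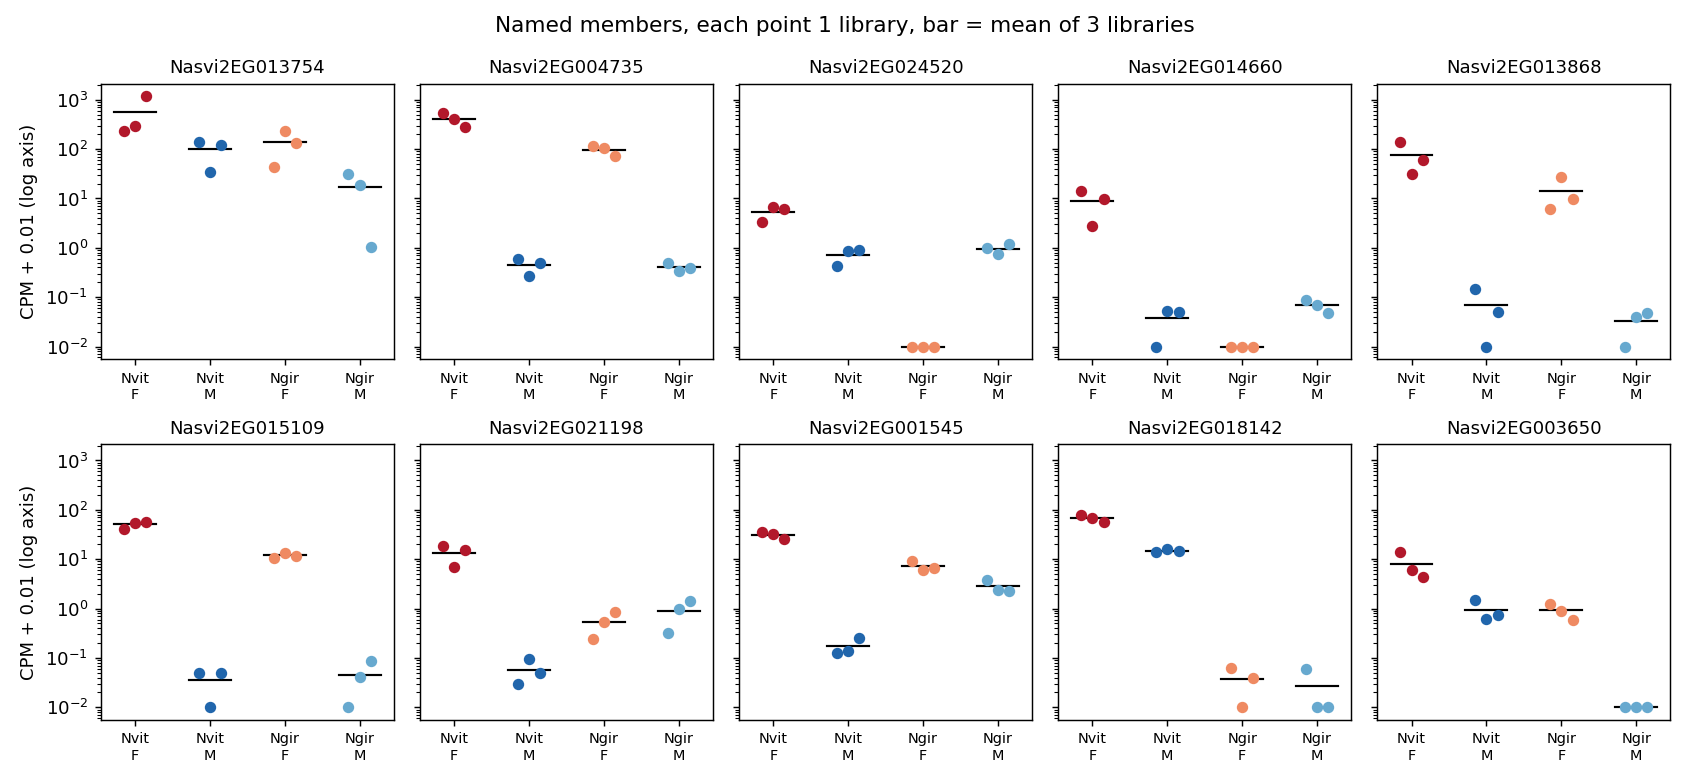
CPM + 0.01 on a log axis for the 10 members named in the text, with 1 point per library and a bar at the mean of 3 libraries in females (F) and males (M) of N. vitripennis (Nvit) and N. giraulti (Ngir). Nasvi2EG004735, Nasvi2EG013868 and Nasvi2EG015109 are high in the females of both species, Nasvi2EG018142 is near 0 in N. giraulti, and Nasvi2EG024520 has no reads in N. giraulti females.

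Agreement among the 3 N. vitripennis female libraries was not used by the rule beyond their mean. In 99 of the 102 members the lowest of these libraries lay above all 9 others, against 7.22% of all tested genes, a gap that the choice of members largely sets. The coefficient of variation among these libraries had a median of 37.1% in members and of 24.2% in all genes at 5 CPM or more there. The highest and lowest of the 3 libraries differed more than 4-fold in 19 members (18.6%), against 3.43% of those genes, and more than 10-fold in 3 members (2.94%), against 0.444%. The rule used the mean of these same libraries, which 1 high library can raise, and the genes were not matched for level. These differences in spread are therefore a description only. Library 1 was the highest of the 3 in 53 members, or 52.0%, the same share as in all genes at that level (52.0%). Library 2 was the lowest in 38.2% of members and in 21.8% of those genes. When every N. vitripennis female library had to exceed every other library by the same log2 difference of 2, 51 members were left.

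The 3 members whose libraries overlapped show how a mean can rest on part of a group. They are described here because of their values and are given without identifier. The first stood at 50.7, 0.367 and 0.373 CPM in the N. vitripennis female libraries, so that library 1 alone was high. In N. giraulti it stood at 1.18, 2.50 and 1.66 CPM in females and at 0.152, 2.76 and 2.76 CPM in males. The gene with the next identifier number, also a member, had the same arrangement in N. vitripennis females, at 81.5, 2.86 and 2.98 CPM. The second stood at 0.505, 65.5 and 49.9 CPM, with library 1 alone low and as low as the N. vitripennis male libraries, which lay between 0.37 and 0.928 CPM. Both sexes of N. giraulti lay between 3.66 and 6.65 CPM for this gene. The last stood at 13.5, 3.14 and 9.52 CPM, and library 2 of the N. giraulti females reached 3.42 CPM. Leaving out library 1 of the N. vitripennis females gave 89 members, 82 of them among the 102.

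**Figure D3:**
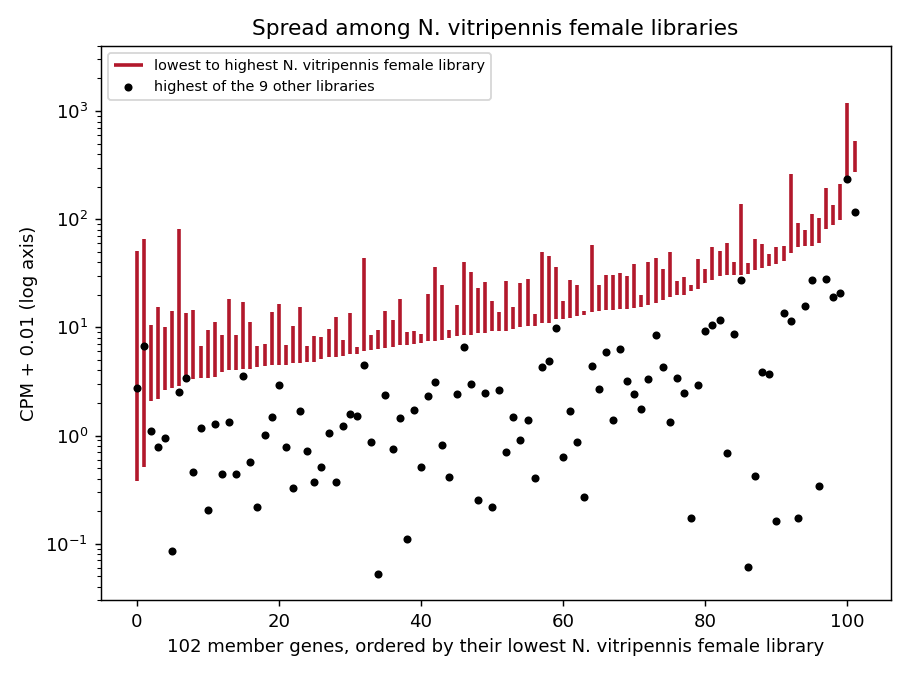
For each of the 102 members (ordered by the lowest N. vitripennis female library), the bar spans the lowest to the highest N. vitripennis female library and the dot gives the highest of the 9 other libraries, in CPM + 0.01 on a log axis. The dot lies below the bar in 99 members and on it in 3.

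The rule did not use the difference between the sexes of N. giraulti, apart from capping both. Of the 102 members, 43 were lower in N. giraulti males than in females, where 26.9% of all 16536 tested genes were, and 7 were higher in males, where 30.0% of all genes were (quasi-likelihood test of edgeR, p under 0.05 after Benjamini-Hochberg adjustment over all tested genes, n = 3 per group). The remaining 52 members were not called. All 102 entered this fit because the filter on low counts saw every group, and many passed it through N. vitripennis females, the group they were chosen on. With only the N. giraulti libraries in the fit 60 members passed the filter, of which 36 were lower in males (30.8% of all genes tested there) and 1 was higher (29.6%). These counts describe the members and give no support for a property of the set. As log2 fold change (males minus females), the median was -0.85 in members and 0.33 in all tested genes. With members lacking reads in a group set to their bound against 3 counts, and without the 13 members at 3 reads or fewer in both sexes, the median of 89 members was -1.05. Not overlapping between the sexes as well as called were 40 members lower in males (26.8% of all tested genes) and 4 higher in males (24.5%).

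Calls toward males were made at low levels. All 7 members called higher in N. giraulti males were under 1 CPM in males, and 4 of them had no reads in females. The other 3 had 15 to 32 reads in females. Of the 7, 2 share reads. In 1 of these, which had no reads in females, the male libraries stood at 0.502, 0 and 0 CPM. Among the 53 members with a mean of at least 0.5 CPM over both sexes of N. giraulti, 34 were lower in males, against 31.0% of all genes at that level, and 0 were higher, against 31.2%. At an unadjusted p under 0.05, 3 of the 53 were higher in males, and the Wald test of DESeq2 with adjustment also called 3. With upper-quartile scaling 31 of the 53 were lower and 7 higher in males, and in the blocked fit (replicate number as a term) 34 and 4. For these other settings no share at the same level is given. Of all tested genes at any level, 31.2% were higher in males by the Wald test. With upper-quartile scaling 21.8% were lower and 40.4% higher, and in the blocked fit 31.2% and 38.1%. In the main fit the median log2 fold change of the 53 members was -2.45. That of all genes at a mean of at least 0.5 CPM was 0.16.

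The 2 members with the strongest excess in N. giraulti females were Nasvi2EG013868 and Nasvi2EG015109. Nasvi2EG013868 stood at 6.10, 27.1 and 9.53 CPM in N. giraulti females and at 0, 0.0304 and 0.0377 CPM in males. Its libraries did not overlap, and the 2 male reads against 1452 female reads give a 675-fold ratio, for which counting error alone allows 187 to 5581 at 95% confidence (edgeR log2 fold change -8.95, SE 1.11, adjusted p = 3.53e-05). Without library 2 of the N. giraulti females the log2 fold change was -8.08. In N. vitripennis it stood at 137, 30.8 and 60.5 CPM in females, so the lowest of these lay only just above the highest N. giraulti female library. Nasvi2EG015109 was steadier, at 10.6, 13.5 and 11.8 CPM in N. giraulti females and 0, 0.0304 and 0.0755 CPM in males. The ratio of 1263 to 3 reads was 392, with counting bounds of 134 and 1901 (edgeR log2 fold change -8.16, SE 0.54, adjusted p = 6.12e-08). Without library 3 of the N. giraulti males, which held 2 of the 3 reads, it was -9.18. Its N. vitripennis female libraries stood at 41.3, 54.8 and 56.9 CPM, above the N. giraulti females without overlap.

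In the opposite direction the rule for named genes gave Nasvi2EG024520 and Nasvi2EG014660. Nasvi2EG024520 had 0 reads in the 3 N. giraulti female libraries and 0.96, 0.729 and 1.17 CPM in N. giraulti males, so males were at least 33.3-fold higher when the female group is set to 3 counts in all (edgeR adjusted p = 7.96e-06). It stood at 3.39, 6.65 and 6.24 CPM in N. vitripennis females and 0.409, 0.842 and 0.888 CPM in N. vitripennis males. The male libraries of both species thus overlapped, and the females lay at opposite ends. For Nasvi2EG014660, the N. giraulti male libraries held 6 reads in all and the female libraries 0, which on the same floor makes males at least 2.15-fold higher (edgeR adjusted p = 0.0322). The gene entered the test through N. vitripennis females and did not pass the filter with N. giraulti alone. The call was lost in 6 of 21 alternatives, over which the adjusted p ran from 0.00912 to 0.154, among them the fits without library 1, 2 or 3 of the N. giraulti females (0.0733, 0.0597 and 0.0608) and without library 1 or 2 of the N. giraulti males (0.086 and 0.0558). It stood at 14.1, 2.73 and 9.66 CPM in N. vitripennis females.

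The count of 7 members higher in N. giraulti males was unstable. It became 17 with upper-quartile scaling, where 37 were lower, while 40.4% of all tested genes were higher and 21.8% lower. It became 11 when the replicate number entered as a block, with 42 lower, against 38.1% and 31.2% of all tested genes. It became 4 without library 1 of the N. giraulti females, where 24.9% of all tested genes were higher. Without library 2 of that group it became 2, against 23.1%. With only the N. giraulti libraries in the fit it was 1, as given above.

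**Figure D4:**
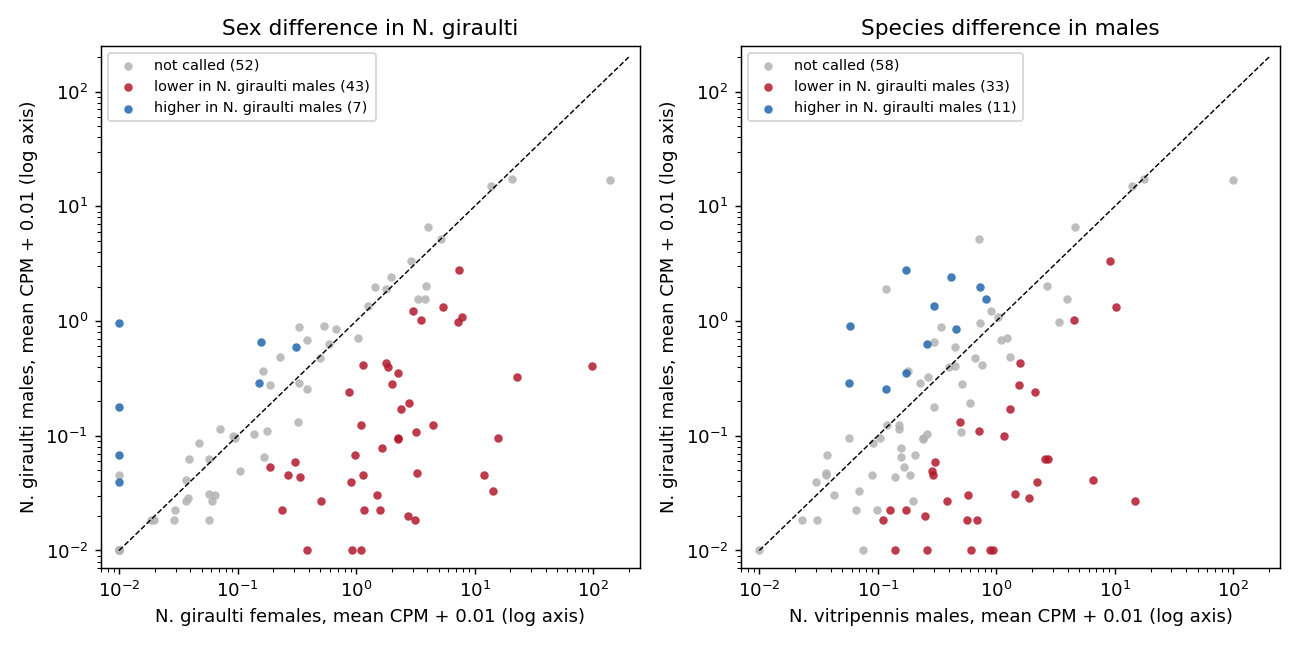
Mean CPM + 0.01 of the 102 members on log axes, with N. giraulti males on the vertical axis against N. giraulti females (left) or N. vitripennis males (right). Coloured points passed an edgeR adjusted p of 0.05, 43 lower and 7 higher in N. giraulti males on the left and 33 lower and 11 higher on the right, and the dashed line marks equal levels.

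Males of the 2 species were compared next, again without any N. vitripennis female library in the contrast. This comparison shares the N. giraulti male libraries with the preceding one. Of the 102 members, 33 were lower in N. giraulti males than in N. vitripennis males, where 16.6% of all tested genes were, and 11 were higher, where 15% were (edgeR, adjusted p under 0.05, n = 3 per group). With only the males in the fit 53 members passed the filter, of which 22 were lower (15.8% of all genes tested there) and 7 higher (13.7%). The other members were tested only in the fit that includes females, and many passed its filter through N. vitripennis females, the group they were chosen on. The rule also capped both groups of males. These counts, too, describe the members and give no support for a property of the set. Called without overlap between the groups were 32 lower (16.5%) and 10 higher members (13.9%). With library size alone as the scaling 36 members were called lower (21.6% of all tested genes) and 6 higher (11.8%). Without library 2 of the N. vitripennis males 31 were lower (12.9%) and 7 higher (14.1%). Members had a median log2 fold change (N. giraulti minus N. vitripennis males) of -1.07, against -0.01 in all tested genes, or -1.17 over 97 members with those lacking reads at their bound. Most of these calls were at very low level in both groups. Of the 33 lower members, 18 were under 1 CPM in the N. vitripennis males. Of the 40 members at a mean of 0.5 CPM or more over both groups of males, 15 were lower and 6 higher in N. giraulti, against 15.8% and 14.3% of all genes at that level.

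Nasvi2EG018142 and Nasvi2EG003650 marked the lower side, and both share reads with another gene. Nasvi2EG018142 stood at 14.2, 15.8 and 14.7 CPM in N. vitripennis males and at 0.0505, 0 and 0 CPM in N. giraulti males. The 1470 against 2 reads correspond to a 728-fold ratio, with counting bounds of 201 and 6020 (edgeR log2 fold change -9.11, SE 0.55, adjusted p = 2.21e-07). Both N. giraulti male reads were in library 1. The log2 fold change was -11.85 without that library, where it depends on the prior count, and -8.44 without library 2. Females of the species differed likewise, at 78.8, 67.2 and 56.1 CPM in N. vitripennis and 0.0512, 0 and 0.0286 CPM in N. giraulti. This gene was therefore on in both sexes of N. vitripennis, higher in females, and near 0 in N. giraulti. Nasvi2EG003650 stood at 1.48, 0.59 and 0.719 CPM in N. vitripennis males and had 0 reads in N. giraulti males, and was at least 35.7-fold lower there with 3 counts as the group's floor (edgeR adjusted p = 0.000222). It was kept in N. giraulti females at 1.24, 0.899 and 0.582 CPM, against 13.7, 6.12 and 4.45 CPM in N. vitripennis females.

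On the higher side were Nasvi2EG021198 and Nasvi2EG001545. Nasvi2EG021198 stood at 0.0195, 0.0842 and 0.0404 CPM in N. vitripennis males and at 0.303, 0.972 and 1.43 CPM in N. giraulti males, without overlap (edgeR log2 fold change 4.47, SE 0.81, adjusted p = 0.000827). It was 5.09 without library 2 of the N. vitripennis males, and the gene did not pass the filter with males alone. Its 3 N. giraulti female libraries, at 0.23, 0.524 and 0.83 CPM, overlapped with the males of that species, and N. vitripennis females stood at 18.3, 6.81 and 15.4 CPM. Nasvi2EG001545 stood at 0.117, 0.126 and 0.242 CPM in N. vitripennis males and at 3.81, 2.34 and 2.23 CPM in N. giraulti males (edgeR log2 fold change 4.34, SE 0.40, adjusted p = 5.51e-06). It stood at 34.8, 33.1 and 25.6 CPM in N. vitripennis females and at 9.25, 6.07 and 6.72 CPM in N. giraulti females. No pair of groups overlapped for this gene, and N. vitripennis males were the lowest.

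The contrasts that the rule used are given as a description only. Lower in N. vitripennis males than in females were 101 members (32.4% of all tested genes, and 65.0% of them differed in either direction), and lower in N. giraulti females than in N. vitripennis females were 100 (18.4%). Nasvi2EG013754 missed the threshold in both, with edgeR adjusted p of 0.0557 and 0.137. The other member that missed the species threshold was the first described above among those whose libraries overlapped (edgeR adjusted p = 0.121). The member with the next identifier number, also high in library 1 alone, passed it (edgeR adjusted p = 0.0169). The sex effect, taken as males over females, differed between the species in 55 members (7.02% of all tested genes). In 54 of these (4.29%) the N. giraulti effect lay further toward males, and in 1 (2.73%) further toward females. That last member had 0 reads in the N. giraulti male libraries, against 0.545, 0.547 and 0.727 CPM in N. vitripennis males. With the replicate block these counts were 56 and 2, against 11.1% and 5.75% of all tested genes. In 47 members the sex effects were not called different in the fit without it, which does not show that they were equal.

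Some members had neighbouring identifiers. In 13 of the 102 members the identifier number was next to that of another member, as 5 pairs and 1 run of 3, and 3 of these 13 share reads. No such count is given for a comparable set of genes, so 13 cannot be read as many or few. Whether identifier order follows the genome was not stated in the available sources. The run of 3 included Nasvi2EG024520. In females of N. vitripennis its first gene averaged 53.3 ± 17.1 CPM (SD, n = 3) and the other two 5.59 ± 0.953 and 5.42 ± 1.77 CPM. The pair that held Nasvi2EG021198 was of similar level, at 17.0 and 13.5 CPM, whereas in another pair the means were 33.9 and 8.76 CPM. There were 64 genes at 5 CPM or more in N. vitripennis females that were no members but had an identifier next to one. In 57.8% of them the level was higher in N. vitripennis females than in each other group, against 44.2% of all genes at that level, with a median log2 margin of 0.14 against -0.09.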

How the data were processed

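Whole-body RNA was sequenced in 12 libraries, 3 for each sex of each species, from pools of 10 animals with 2 ug of RNA each, per the labels' protocols. The deposited file holds estimated counts, fractional in 3372 of 24337 genes and without scaling by the authors. Per the submitters' processing notes, the tools were TopHat2 2.0, Cufflinks 2.1.0, CASAVA 1.8.2, Trimmomatic, FastQC, bedtools, HTSeq and edgeR, with no roles given. Genome build and annotation were not stated there, and 0 identifiers matched the 15501 genes of the name table.

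Members were found on CPM by column sum. For tests, counts were rounded, filtered with filterByExpr by group (minimum count 10, 16536 genes left), scaled by TMM and fitted with edgeR 4.0.16 (R 4.3.3) in a quasi-likelihood model of all 12 libraries, with p-values adjusted over all genes tested. Levels in the text are CPM by column sum, and fold changes come from the fit. The test was checked on simulated data, with libraries drawn independently and changes placed only in genes above a count floor. That check covers neither libraries that vary together nor the lowest counts. The labels call the replicates independent batches, and replicates of a group differed beyond sampling noise (chi-square per degree of freedom 40.06 to 271). Deviations from group means correlated in all 18 same-numbered pairs (r from 0.20 to 0.708), against -0.574 to 0.325 in the 36 other pairs. Libraries of the same number thus varied together. This pairing comes from the data. Library 1 was also the deepest in all 4 groups, and the cause was not tested. The main fit had no term for the number. With it, the common dispersion (the model's variation between replicates) was 0.0477 and not 0.111. Calls between the sexes of N. giraulti were then 69.3% of tested genes, against 56.9%.

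The members and comparisons were chosen with earlier results of these data known. The genes named are the 2 most abundant members and, per direction of each contrast the rule did not use, the 2 called, non-overlapping members with the largest log2 fold change. Alternatives were other scalings, filters, DESeq2 1.42.0, the replicate block, fewer groups and leaving out libraries. Counting intervals and floors (3 counts) cover counting error only, and p-values measure the spread between these pools.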

Additional observations from a re-analysis of the deposited data

Results flagged for a closer look

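The sex effect differed between the species in a direct test for 55 members, with the N. giraulti effect further toward males in 54 and further toward females in 1. The choice of members on N. vitripennis females nearly fixes this direction, so neither these counts nor the values below are a test of it. For description only, the edgeR adjusted p among the named members was 0.0148 for Nasvi2EG004735, 5.42e-05 for Nasvi2EG024520, 0.00147 for Nasvi2EG014660, 0.000137 for Nasvi2EG021198 and 1.64e-05 for Nasvi2EG001545. It missed the threshold in the other 5, at 0.99 for Nasvi2EG013754, 0.892 for Nasvi2EG013868, 0.425 for Nasvi2EG018142, 0.254 for Nasvi2EG015109 and 0.0914 for Nasvi2EG003650. Groups of 3 libraries were too small for a test of single outlying libraries.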

How the results depend on the processing

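The number of members was 84 to 111 under the other constants, scalings and averages, 89 to 107 without single libraries, and 51 when each N. vitripennis female library had to exceed each other library. The following counts of members have the share of all tested genes in the same direction in parentheses. Higher in N. giraulti males than females were 7 (30.0%). They became 17 with upper-quartile scaling (40.4%), 3 with library size alone (21.2%), 4 with no filter (19%) and 11 at a mean of 1 CPM (33.9%). They became 11 with the replicate block (38.1%), 1 with only N. giraulti in the fit (29.6%) and 2 to 9 without single libraries (23.1% to 30.4%). Members lower in males numbered 43 (26.9%), and 35 to 44 without single libraries (23.5% to 27.4%). Between males of the species, 11 members were higher in N. giraulti (15%). They became 6 with library size alone (11.8%), 7 with only males in the fit (13.7%) and 7 to 12 without single libraries (13.9% to 16.1%). The 33 lower ones (16.6%) became 26 to 34 without single libraries (12.2% to 17.9%). The cause of these changes was not tested. The median log2 fold change of all tested genes in N. giraulti males over females was 0.33 with TMM, 0.05 with library size alone and 0.67 at the upper quartile. Of 204 values of named members under alternatives, 198 kept their direction and call or stayed within 1 SD, 6 lost the call (all for Nasvi2EG014660) and 0 reversed. For margins this SD was that of the N. vitripennis female libraries on the log2 scale, 1.26 for Nasvi2EG013754. Staying within it did not mean staying a member. Without single libraries the margin of Nasvi2EG013754 fell as low as 0.95 and that of Nasvi2EG004735 as low as 1.78. With medians they were 1.13 and 1.93, also under the threshold of 2. With the replicate block the members lower in N. giraulti males than females and both counts between males of the species stayed within 1.5 times (42, 36 and 12). Of all tested genes, 31.2%, 23.5% and 21.5% were called in these directions with the block. Levels under 3 counts per library limit what can be read from the lowest members.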
